A study of Mus musculus with 2 samples.

Results

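The genes described here encode the subunits of heterotrimeric G proteins and the RGS proteins that switch them off. They were chosen by symbol: 11 alpha subunit genes, 5 beta, 10 gamma and 14 RGS genes, 40 of the 43346 genes in the tables. All 40 symbols were found. A heterotrimeric G protein couples a receptor in the cell membrane to enzymes and channels inside the cell. A bound receptor makes the alpha subunit exchange GDP for GTP, after which alpha and the beta-gamma pair separate and each acts on its effectors. RGS proteins, regulators of G protein signalling, speed up GTP hydrolysis by the alpha subunit and so end the signal. In the cortex this machinery serves the metabotropic receptors for glutamate, GABA, acetylcholine, monoamines and neuropeptides.

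RNA came from a single group, the cortex (labelled cortical plate) of adult C57BL/6J mice aged 8 weeks, with no treatment, genotype or second condition named. Males and females from shared litters were pooled, so neither library is a single animal. The 2 libraries are labelled biological replicates 1 and 2, with separate tissue samples but the same donor entry. Both are strand-specific paired-end libraries from polyadenylated RNA over 200 nt. Total depth was 91875460 and 92939474 expected counts, of which the 40 genes took 0.409% and 0.431% of the counts on genes. Levels are TPM (a length-corrected share of all transcripts) as mean ± SD over both libraries (n = 2). Comparisons between replicate 2 and replicate 1 compare these libraries and not conditions.

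The labelled tissue was set beside marker genes. The marker lists were chosen with earlier results of these data known, so a shared direction within a list is not independent support. Excitatory neuron markers were abundant, with a median of 525 TPM over 5 genes. The libraries differed in markers of neighbouring regions. All 12 markers of striatal neurons were higher in replicate 2, and their summed level was 188 TPM in replicate 1 and 479 TPM in replicate 2. In replicate 1 they ran from 0.03 TPM for Six3 and 0.80 TPM for Drd2, the dopamine D2 receptor gene, to 69.68 TPM for Ppp1r1b, and none was at 0. Some of them, such as Penk and Foxp1, are also known from cortical neurons. Of 7 hippocampal markers 5 were lower in replicate 2 and 1 was higher, with a sum of 51.8 and 37.8 TPM. All 6 oligodendrocyte markers were higher in replicate 2, at 3491 and 4253 TPM in sum. These values return beside the genes they move with, since in whole tissue a change in the number of cells of a type and a change in RNA per cell cannot be told apart.

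The last coding bases carry features by which the subunits are usually told apart, so they are shown first, as the final 30 coding bases of each gene's leading coding transcript in GENCODE release M21 on GRCm38, 5′ to 3′. In the alpha subunits the capitals mark the fourth codon from the end. A cysteine there is the residue that pertussis toxin modifies, which uncouples the subunit from its receptors.
Gnao1: gccaacaatctccggggcTGCggcttgtac
Gnai2: aagaacaacctgaaggacTGTggcctcttc
Gnai1: aagaataacctaaaagacTGTggtctcttc
Gnaz: cagaacaatctcaagtacATCggcctttgc
Gna11: cagctgaacctgaaggagTACaacctggtg
Gnaq: cagctgaacctgaaggagTACaatctggtc
Gna12: caggagaacctgaaagacATCatgctgcag
Gna13: catgacaacctgaagcagCTCatgctgcag
Cysteine stood at that place in Gnao1, Gnai1, Gnai2 and Gnai3. Gnaz and Gna12 have isoleucine, Gnaq and Gna11 tyrosine, Gna13 leucine and Gna14 phenylalanine. The 4 cysteine genes held 67.4 ± 1.18% (SD, n = 2) of the summed TPM of the 10 alpha genes read, with 66.5% in replicate 1 and 68.2% in replicate 2. The alpha s gene Gnal was not among those read, nor was Gnas, the common stimulatory alpha gene, which was outside the chosen genes. Gnas alone was at 1207 TPM in replicate 1 and 1049 TPM in replicate 2. That is above the sum of the 11 chosen alpha genes, 713.1 and 671.5 TPM. The cysteine share therefore describes the 10 genes read and not all alpha subunit RNA of the tissue.

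In the gamma subunits the capitals mark the last codon. The protein ends in a cysteine followed by 3 residues, and the last residue is known to decide which lipid is attached: leucine directs a geranylgeranyl group and serine a farnesyl group.
Gng13: tgggtagagaaggccaagtgcaccatcCTA
Gng3: cgggagaagaagttcttctgtgcgctcCTC
Gng2: cgggagaagaagttcttctgcgccatcCTT
Gng7: ttcaaagacaaaaagccttgcataattCTC
Gng11: ttcaaagaaaagggcagctgtgtcattTCA
All 10 gamma genes had the cysteine codon at the fourth place from the end. The last codon was leucine in 9 of the 10 and serine in Gng11. The leucine genes held 98.6 ± 0.133% of gamma TPM and Gng11 held 1.435 ± 0.133%, so RNA for a gamma subunit of the farnesylated kind was a small part in both libraries.

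Alpha subunits spanned a wide range. Gnao1 (chr8:93809966-93969388, + strand), which encodes alpha o, the abundant alpha subunit of neurons, was measured at 225.53 TPM in replicate 1 and 222.66 TPM in replicate 2. Gnai2 (chr9:107614125-107635367, − strand), an inhibitor of adenylyl cyclase, was at 156.77 and 141.95 TPM. Gna11 (chr10:81528724-81545190, − strand), which activates phospholipase C beta, was at 84.44 and 72.48 TPM. The ranges of these 3 genes over the libraries did not overlap, so their order held beyond the spread of the replicates. By TPM, Gnao1 exceeded Gnai2 by 0.59 ± 0.09 on the log2 scale and Gnai2 exceeded Gnai1 by 1.43 ± 0.04.

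The 5 genes of the i/o/z class summed to 480 ± 18.2 TPM, against 111 ± 12.4 TPM for the 3 genes of the q class and 65.9 ± 3.06 TPM for the class of Gna12 and Gna13. Within the q class Gnaq, at 32.1 ± 3.90 TPM, was below Gna11 by 1.29 ± 0.02 on the log2 scale. Gna12 reached 47.0 ± 1.16 TPM and Gna13 18.9 ± 1.90 TPM. Gnaz, whose product inhibits adenylyl cyclase but lacks the toxin's cysteine, was at 37.98 ± 3.295 TPM. Gnaz overlapped in level with Gnal, and Gnal with Gnaq, the 2 of 10 neighbouring pairs of alpha genes whose libraries overlapped. Gna14, a q-class gene, was near nil with 19 counts in each library. The other genes of the alpha family, taken from a wider list, included Gnas, the common stimulatory alpha subunit, at 1207 and 1049 TPM. Gnas exceeded its relative Gnal by 5.00 ± 0.31 on the log2 scale.

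Among beta subunits, Gnb1 (chr4:155491361-155559269, + strand) was measured at 397.63 and 362.61 TPM and Gnb2 (chr5:137528127-137533510, − strand) at 355.53 and 338.11 TPM. Both encode beta subunits of wide use. Together these genes made up most of the family, with 46.4 ± 1.12% of beta TPM for Gnb1 and 42.3 ± 0.231% for Gnb2. Their order depends on the scale: by the authors' mean RPKM on the older mm9 assembly Gnb2 exceeded Gnb1 by 0.61 on the log2 scale, where TPM put Gnb1 ahead by 0.13 ± 0.04. Gnb5 (chr9:75306288-75345876, + strand), the beta subunit that binds R7 RGS proteins in place of a gamma subunit, followed at 69.24 and 71.68 TPM. Gnb4 reached 21.7 ± 1.82 TPM. Gnb3, known from cone photoreceptors and taste cells, had 14 and 10 counts. No 2 neighbouring beta genes overlapped in level.

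Gamma subunits were led by Gng13 (chr17:25717171-25719406, + strand), known from taste and olfactory cells and retinal bipolar cells, at 241.92 and 216.72 TPM. That rank depends on the scale. Gng13 had only 2485 and 2301 counts, and without length it lay below Gng3 by −2.84 on the log2 scale, where TPM put it above by 0.51 ± 0.04. By the authors' mean mm9 RPKM, which also divides by length, it lay below Gng3 by −0.43. In addition, 51.6% of its exon bases overlap Chtf18 on the opposite strand, and whether the authors' counting used strand is not given in the sources used here. Gng3 (chr19:8836933-8839194, − strand), a gamma subunit of neurons, was at 173.75 and 149.63 TPM with 17617 and 16565 counts, and 24.2% of its exon bases overlap Bscl2. Gng2 (chr14:19872559-19977627, − strand) was at 67.40 and 51.41 TPM, with 20.4% overlap with Gm48283. The libraries of Gng2 and Gng7 overlapped in level, and those of Gng7 and Gng5, the 2 of 9 neighbouring gamma pairs that did so. Gng5, Gng10 and Gng12, gamma subunits of wide expression, lay at 49.0 ± 3.51, 32.2 ± 1.70 and 28.4 ± 0.933 TPM. Gng4, Gng11 and Gng8 were lowest, at 17.4 ± 2.21, 9.28 ± 0.587 and 1.61 ± 0.325 TPM.

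Rgs4 (chr1:169741477-169747642, − strand), a small RGS protein of the R4 subfamily that acts on the i/o and q classes, stood apart from the other RGS genes at 207.68 and 209.16 TPM. It held 35.5 ± 0.865% of the summed TPM of 21 RGS genes, these 14 and 7 others from the wider family list. Rgs11 (chr17:26202951-26211324, + strand) was at 54.28 and 44.69 TPM and Rgs7 (chr1:175059087-175492500, − strand) at 53.38 and 44.95 TPM. Both belong to the R7 subfamily, which is stable only when bound to the Gnb5 protein, and their levels overlapped. Of Rgs11 TPM, 95.06% and 93.44% lay on transcript models that retain an intron, so its rank is not one of coding RNA. The remaining 11 RGS genes ran from Rgs10 of the R12 subfamily at 37.0 ± 3.41 TPM down to Rgs16 at 6.29 ± 0.481 TPM. Of 13 neighbouring RGS pairs 6 overlapped, most of them among the closely spaced genes from Rgs8 (23.5 ± 0.212 TPM) to Rgs6 (15.9 ± 1.63 TPM). By subfamily, the 4 R4 genes summed to 258 ± 1.55 TPM, the 4 R7 genes to 132 ± 1.01, the 3 R12 genes to 78.4 ± 6.66 and the 3 RZ genes to 60.4 ± 1.05. Of RGS genes outside the 40, Rgs5 reached 38.1 ± 6.41 TPM and Rgs2 19.1 ± 0.368 TPM, and Rgs4 exceeded Rgs2 by 3.45 ± 0.02 on the log2 scale.

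**Figure D1:**
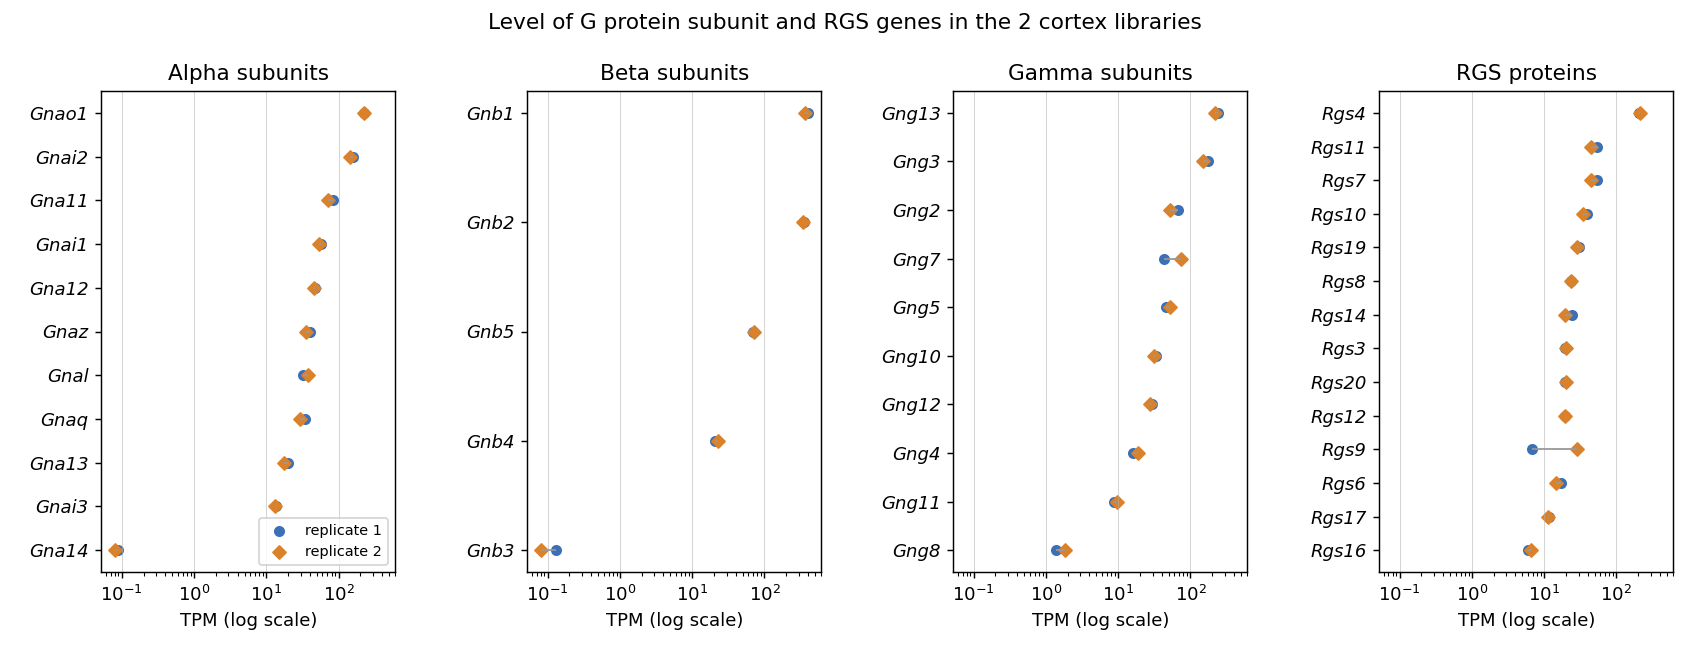
Level of each of the 40 genes in TPM on a log axis, in panels for alpha, beta and gamma subunits and RGS proteins, with a circle for replicate 1 and a diamond for replicate 2 joined by a line. Most pairs of symbols lie on each other, while Rgs9 (6.81 and 28.56 TPM) and Gng7 (42.62 and 75.14 TPM) are drawn apart.

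The next comparison was between the libraries. Each of the 19829 genes with at least 10 counts was compared by an exact two-sided binomial test on counts, and a gene was called at a Benjamini-Hochberg adjusted p under 0.05. At this depth the test called 28.7% of all genes tested, 14.8% higher and 13.9% lower in replicate 2. Of the 40 genes 27 were called, 21 higher and 6 lower, which becomes 18 higher and 10 lower when libraries are scaled by plain totals in place of TMM. The median log2 ratio was 0.09 over the 40 genes and 0.00 over all tested. Deeply counted genes are called more often: among genes with at least 1000 counts 38.5% were called, and 26 of the 36 such G protein and RGS genes. A call together with a difference of at least 1.2-fold was met by 9.32% of all genes, or 5.35% of those with at least 1000 counts. It was met by 7 of the 40, or 6 of the 36, and all 7 were higher in replicate 2. Among all 1848 genes that met it, 59.0% were higher.

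Rgs9 (chr11:109225355-109298129, − strand), the R7 protein that limits dopamine and opioid receptor signals in the striatum, differed most. It had 957 counts in replicate 1 and 4444 in replicate 2, or 6.81 and 28.56 TPM. The ratio was 4.74-fold with a 95% interval of 4.42 to 5.08. Gng7 (chr10:80948624-81014945, − strand), the gamma subunit that assembles with the Gnal product in the striatum, followed with 8771 and 15992 counts, or 42.62 and 75.14 TPM, a ratio of 1.86 (1.81 to 1.91). Gnal itself (chr18:67088216-67226792, + strand), the stimulatory alpha subunit of olfactory and striatal neurons, had 11304 and 14619 counts, or 32.44 and 38.33 TPM, a ratio of 1.32 (1.29 to 1.35). These genes, known together from striatal signalling, differed in the same direction as all 12 striatal markers, whose median log2 ratio was 1.86. That list was chosen with earlier results of these data known, and the part of those cells in the result was not tested. Each was higher in replicate 2 on counts and on TPM.

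Gnb4 (chr3:32580332-32616585, − strand), a beta subunit, had 3103 and 4176 counts, or 20.44 and 23.02 TPM, a ratio of 1.37 (1.31 to 1.44). Rgs16 (chr1:153740349-153745468, + strand), of the R4 subfamily, had 861 and 1050 counts, or 5.95 and 6.63 TPM, a ratio of 1.24 (1.14 to 1.36). Gng11 (chr6:4003904-4008445, + strand) had 407 and 483 counts, or 8.86 and 9.69 TPM, a ratio of 1.21 (1.06 to 1.38). Gng5 (chr3:146499807-146505572, + strand) had 1172 and 1384 counts, or 46.56 and 51.53 TPM, a ratio of 1.204 (1.11 to 1.30). The intervals of the last 3 genes reach below 1.2-fold. The median log2 ratio of oligodendrocyte markers, also all higher, was 0.43. Of inhibitory neuron markers 4 of 5 were higher (median 0.16), and of choroid plexus markers 4 of 5 (median 0.63). Of excitatory neuron markers 4 of 5 were lower, and of microglial markers 3 of 6. No list was tied to these genes beforehand, and the part of any of these cells in the differences was not tested.

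The binomial test counts only the sampling of reads. With a common biological coefficient of variation of 0.0905, estimated from the same libraries, edgeR's exact test called 1.31% of all genes and 2 of the 40: Rgs9 (adjusted p = 1.23e-26) and Gng7 (adjusted p = 0.000286). That coefficient is 1 value for all genes, estimated with the 2 libraries taken as replicates of 1 group. The adjusted p-values therefore hold no measure of the spread of Rgs9 or Gng7 itself between replicates. Of the 260 genes that edgeR's test called, 69.2% were higher in replicate 2. Under it 4 of the 40 had an unadjusted p under 0.05, Rgs9, Gng7, Gnal and Gnb4, all higher in replicate 2. The share of all genes at that unadjusted limit was not counted, so the 4 have no background beside them.

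The other 20 called genes differed by less than 1.2-fold. Those lower in replicate 2 were Gnaq, Gna11, Gng3, Rgs7, Rgs11 and Rgs14, with ratios from 0.902 for Rgs14, known from hippocampal CA2 neurons, to 0.970 for Gna11. Of the 7 hippocampal markers 5 were also lower and 1 was higher, with a median log2 ratio of −1.19, a far larger difference. That list was not divided by hippocampal field. Of the excitatory neuron markers 4 of 5 were lower, with a median log2 ratio of −0.08. The part of those cells in these lower values was not tested. Among those higher were the leading alpha and RGS genes, Gnao1 at 1.10-fold (1.08 to 1.12) and Rgs4 at 1.13-fold (1.11 to 1.14). For Gnao1 the direction turns on the TPM scale, where its log2 ratio was −0.02, while the median of all genes on that scale was −0.16. Gnb1, called at 1.02-fold, turns under plain totals and TPM. The 13 genes not called included Gnai2 (0.999-fold, 0.979 to 1.02), Gna13 (0.997-fold, 0.964 to 1.03) and Gnb2 (1.01-fold, 0.995 to 1.03), whose intervals leave room for a few percent only. They also included Gna14 and Gnb3, where the intervals ran from 0.511 to 2.04 and from 0.289 to 1.76, so that a difference was not detectable at this depth.

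**Figure D2:**
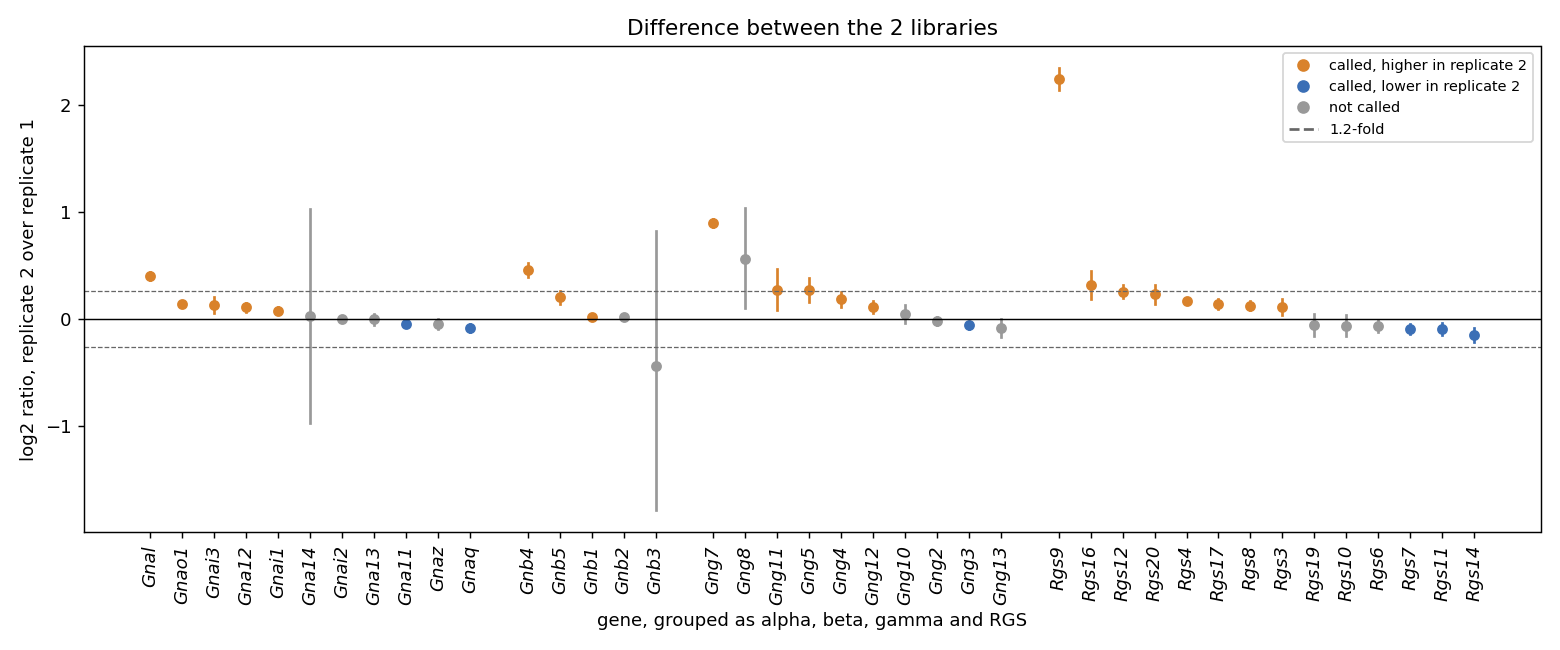
Log2 ratio of replicate 2 to replicate 1 for each of the 40 genes (points) with its 95% Clopper-Pearson interval (lines), grouped as alpha, beta, gamma and RGS genes, coloured by call, with dashed lines at 1.2-fold in each direction. Rgs9 lies at 2.24 and Gng7 at 0.90, and the widest intervals belong to Gnb3 and Gna14.

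The R7 subfamily differed between the libraries in makeup but, on the TPM scale, little in sum. Its 4 genes summed to 131.6 and 133.0 TPM in replicates 1 and 2, while the median log2 TPM ratio of all genes was −0.156. Rgs9 held 5.18% of that sum in replicate 1 and 21.5% in replicate 2. Rgs7 held 40.6% and 33.8%, Rgs11 41.3% and 33.6% and Rgs6 12.98% and 11.11%. Shares of a sum are tied, so a higher Rgs9 share lowers the others by construction. Of Rgs11 TPM, 95.06% and 93.44% lay on transcript models that retain an intron and have no annotated protein. The shares therefore describe RNA and not coding transcripts. Gnb5, the shared partner of the R7 proteins, was 1.15-fold higher (1.105 to 1.197). Of 4 other R7 partners, the membrane anchor gene Rgs7bp, at 41.0 ± 2.09 TPM, and the orphan receptor gene Gpr158, at 27.5 ± 0.771 TPM, were both called higher in replicate 2, at 1.04-fold and 1.16-fold. For Rgs7bp the direction turns on the TPM scale, at 42.46 and 39.51 TPM. The retinal partners Rgs9bp and Gpr179 were listed at 0.04 TPM in both libraries and at 0.08 and 0.10 TPM, and were not called. Gnb5 exceeded Rgs7bp by 0.78 ± 0.11 on the log2 scale of TPM, but lay below it by −1.73 on counts without length.

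A promoter can be set beside the library difference for the genes that differed most. The 250 bases before the RefSeq start are shown for Rgs9 (chr11:109298182-109298431, − strand) and for a pair of Gng7 starts, the upstream (chr10:81014926-81015175, − strand) and the middle one (chr10:81001366-81001615, − strand), all on GRCm38.p6 and written 5′ to 3′ on the gene's strand. The last bases of both Gng7 windows lie inside the first exon of a longer transcript model. Capitals mark matches, on either strand, to any of 5 short promoter motifs. These were the TATA box, with the letters TATAAA, and the box named for its own letters, CCAAT. The others were the GC box, spelled GGGCGG, the cAMP response element, spelled TGACGTCA, and the core of that element, TGACG, which the full element contains.
Rgs9: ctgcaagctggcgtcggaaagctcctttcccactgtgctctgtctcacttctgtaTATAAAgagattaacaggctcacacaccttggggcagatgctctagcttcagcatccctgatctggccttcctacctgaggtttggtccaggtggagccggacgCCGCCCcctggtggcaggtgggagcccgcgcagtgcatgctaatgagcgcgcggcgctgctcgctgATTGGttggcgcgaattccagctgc
Gng7 upstream: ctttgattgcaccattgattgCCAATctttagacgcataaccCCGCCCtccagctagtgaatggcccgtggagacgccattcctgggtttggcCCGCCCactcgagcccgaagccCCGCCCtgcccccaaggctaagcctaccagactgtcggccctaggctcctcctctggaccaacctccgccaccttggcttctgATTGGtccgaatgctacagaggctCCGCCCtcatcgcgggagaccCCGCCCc
Gng7 middle: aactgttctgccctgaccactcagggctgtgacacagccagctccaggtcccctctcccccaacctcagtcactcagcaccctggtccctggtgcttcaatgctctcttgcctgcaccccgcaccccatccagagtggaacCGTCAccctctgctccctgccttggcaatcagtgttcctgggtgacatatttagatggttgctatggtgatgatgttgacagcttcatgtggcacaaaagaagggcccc
The Rgs9 window held 1 TATA box, 1 CCAAT box, 1 GC box and 14 CG dinucleotides. The upstream Gng7 window held 5 GC boxes, 2 CCAAT boxes and 15 CG dinucleotides, with neither a TATA box nor a cAMP response element core. The middle Gng7 window held 1 core and 2 CG dinucleotides and none of the other motifs. Of 32851 RefSeq promoter windows of this length, 12.4% held a TATA box, 33.9% a CCAAT box, 32.7% a GC box, 1.55% the full cAMP response element and 17.8% its core, with a median of 6 CG dinucleotides. RefSeq windows matched 31 of the 40 genes by symbol. A match describes letters only.

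Transcripts were grouped by start site after their values were seen. Gng7 transcripts that begin at the upstream start (81014913 to 81014945) summed to 28.62 TPM in replicate 1 and 57.46 TPM in replicate 2, a ratio of 2.01. Those of the middle start (81001365 to 81001378) were at 11.89 and 9.18 TPM, and Gng7-205, from 80998190, at 2.10 and 8.49 TPM. The upstream start thus gave 67.2% of Gng7 TPM in replicate 1 and 76.5% in replicate 2. Within it, the transcript Gng7-201 was at 12.44 and 41.23 TPM and Gng7-203 at 15.84 and 15.74 TPM. Their deposited credible bounds in replicate 2, 11.2 to 45.7 TPM and 12.02 to 45.51 TPM, overlap almost entirely, so the split between them is not determined. For Gng7-205 the bounds did not overlap between libraries (1.48 to 2.84 and 7.19 to 9.70 TPM). Gnal was split between a major transcript, Gnal-202 at 21.98 and 26.61 TPM, and Gnal-201 at 10.46 and 11.72 TPM. Of Rgs9, the transcripts from the upstream start were at 4.38 and 19.96 TPM, and Rgs9-202, from an internal start, at 2.43 and 8.30 TPM, so that both groups were higher in replicate 2.

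**Figure D3:**
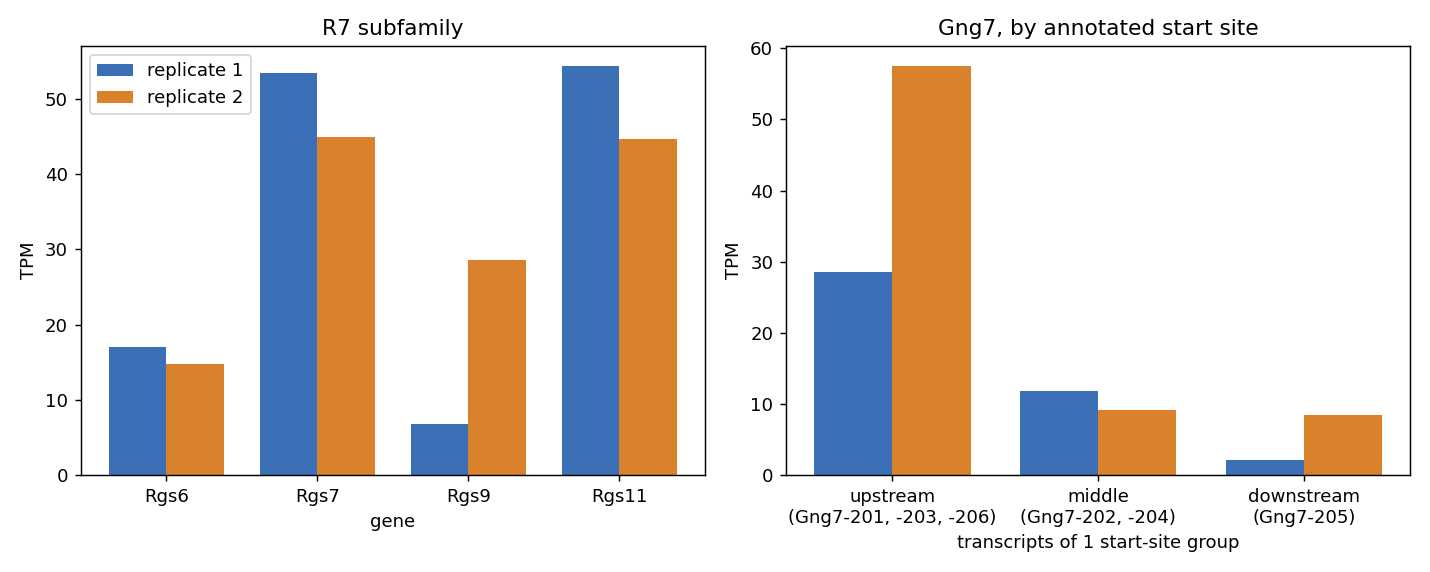
TPM in replicate 1 and replicate 2 (bars from 0, 1 library each, no error bar) for the 4 R7 genes on the left and for Gng7 transcripts grouped by annotated start site on the right. Rgs9 is the R7 gene with the taller bar in replicate 2, and the upstream Gng7 group stands at 28.62 and 57.46 TPM.

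The 35 genes with at least 10 TPM were described by transcript. Of these, 5 had 1 annotated transcript. In 12 the leading transcript held under 60% of the gene's TPM, and in 5 of those, Gnb1, Gnb2, Gnb4, Rgs3 and Rgs11, the leader was a model annotated as retaining an intron, which has no annotated protein. For Gnb2 this holds for the mean and for replicate 2, while in replicate 1 the coding Gnb2-209 led with 29.7% against 25.6%. Retained-intron models held 94.3 ± 1.14% of Rgs11, 72.0 ± 3.90% of Gnb4, 56.2 ± 2.34% of Rgs3, 39.3 ± 0.186% of Gnb1 and 36.8 ± 3.08% of Gnb2. Such models held at least 50% in 3 of these 35 genes, or 8.57%, and in 3.66% of 7872 protein-coding genes at that level. Short models weigh more in TPM than in reads. By counts without length the share was 92.4% for Rgs11 and 55.0% for Rgs3, but 35.4% for Gnb4, 21.7% for Gnb2 and 12.01% for Gnb1.

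In the other 7 of those 12 genes the leader was a coding transcript. Gnao1 was shared mainly by Gnao1-203 at 36.3 ± 0.969% and Gnao1-201 at 32.2 ± 1.25%. Rgs7 was led by Rgs7-206 at 47.0 ± 2.81%, Rgs12 by Rgs12-204 at 48.0 ± 3.09%, Rgs19 by Rgs19-204 at 41.6 ± 1.52% and Rgs9 by Rgs9-201 at 45.6 ± 6.87%. The last 2 were Gng12, with Gng12-201 at 58.7 ± 0.446%, and Gng7. A share differed by at least 10 percentage points between the libraries in 4 genes. They were Gng7, Gng2, Rgs12 and Gng4. For Gng2 the short Gng2-206 went from 24.2% to 11.4% on 212 and 80 counts. For Rgs12, a scaffold with several domains, Rgs12-206 went from 19.96% to 32.05% with credible bounds of 3.18 to 4.59 and 5.42 to 6.97 TPM. For Gng4 the difference rests on Gng4-202, which had 0 and 2.38 counts, and is within counting error.

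Junction reads on mm9 gave inclusion of internal exons for 36 of the 40 genes, in a pair of columns that could not be assigned to replicates. Of 248 exons with at least 20 informative reads in each column, 232 were included above 90% in both. Skipping was counted only between the outer junction ends that the exon itself used. An exon model that spans an intron, or an exon that replaces another, can therefore read 100%. For example, the Gnb2 exon model of 506 nt and the 67 nt exon inside it both read 100%. The 232 are thus not a count of exons present in every transcript. Intermediate inclusion, from 10% to 90% in both columns, was found for 12 exons in 8 genes. Rgs7 had a pair of such exons, of 78 nt (chr1:176996748-176996825, mm9) and 81 nt (chr1:177006148-177006228), with 72.2% and 65.1% inclusion over both columns. Gnb1 had an exon of 49 nt (chr4:154889740-154889788) at 74.0% and 73.6%, with 462 and 496 skipping reads, the deepest of the 12. Gnaz had an exon of 66 nt at 74.9% and 74.0%, Rgs19 one of 106 nt at 47.7% and 41.0%, and Rgs8 one of 129 nt at 79.3% and 88.4%. The 3 exons of Rgs11 ranged from 46.9% to 78.2% over both columns. A pair of overlapping Gng12 exons, which share an end, stood at 37.2% and 21.5%. The Rgs17 exon, at 25.6%, had the fewest reads and was the one not measured at a minimum of 50 reads.

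Other genes of the pathway were counted from a list of 45, of which 44 were tested. Of these 11 were called higher and 16 lower in replicate 2, with a median log2 ratio of −0.01, beside the 14.8% and 13.9% of all genes. Among the 20 effectors, 5 were higher and 10 lower. Kalrn was the most abundant at 149.0 ± 20.96 TPM and was lower in replicate 2 (0.911-fold, 0.899 to 0.923). Adcy1, a calcium-stimulated adenylyl cyclase, reached 104 ± 20.7 TPM and was also lower (0.842-fold, 0.834 to 0.850). Adcy5, the main adenylyl cyclase of the striatum, went the other way with 28.62 and 45.87 TPM and a ratio of 1.79 (1.75 to 1.83), in the direction of the striatal markers, whose part in it was not tested. The potassium channel gene Kcnj5 had 42 and 67 counts, a ratio of 1.62 (1.09 to 2.45).

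Of 9 activators and proteins that act on alpha subunits, 4 were higher and 3 lower. Rap1gap was the most abundant at 187 ± 2.73 TPM, followed by Ric8a, a chaperone and exchange factor for alpha subunits, at 42.4 ± 6.36 TPM. Rasd2, a small GTPase enriched in striatum, had 4249 and 7363 counts and a ratio of 1.77 (1.70 to 1.84), in that same direction. The related Rasd1 had 410 and 192 counts, lower in replicate 2 (0.478-fold, 0.4003 to 0.568). Pcp2, known from cerebellar Purkinje and retinal bipolar cells, had 66 and 2 counts (0.0383-fold, 0.00367 to 0.116). Of 6 cerebellar markers, Pcp2 among them, 2 were lower in replicate 2, 2 higher and 2 not called, and their part in the Pcp2 value was not tested. Of 7 kinases and arrestins, which quench the receptor itself, 2 were called, Grk2 and Grk3, both lower in replicate 2. Grk2 was the most abundant at 120 ± 15.8 TPM (0.918-fold, 0.902 to 0.934), and the arrestin gene Arrb1, at 70.7 ± 0.354 TPM, was not called. The chaperones had 1 gene of 4 called, Cct5, which was lower at 0.959-fold and was the most abundant with 90.3 ± 9.53 TPM, followed by Cct2 at 64.5 ± 4.46 TPM. Of 10 tested genes of the G protein and RGS families outside the 40, Gnas and Rgs5 were lower and Rgs2 and Rgs22 higher, the last with 34 and 58 counts.

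**Figure D4:**
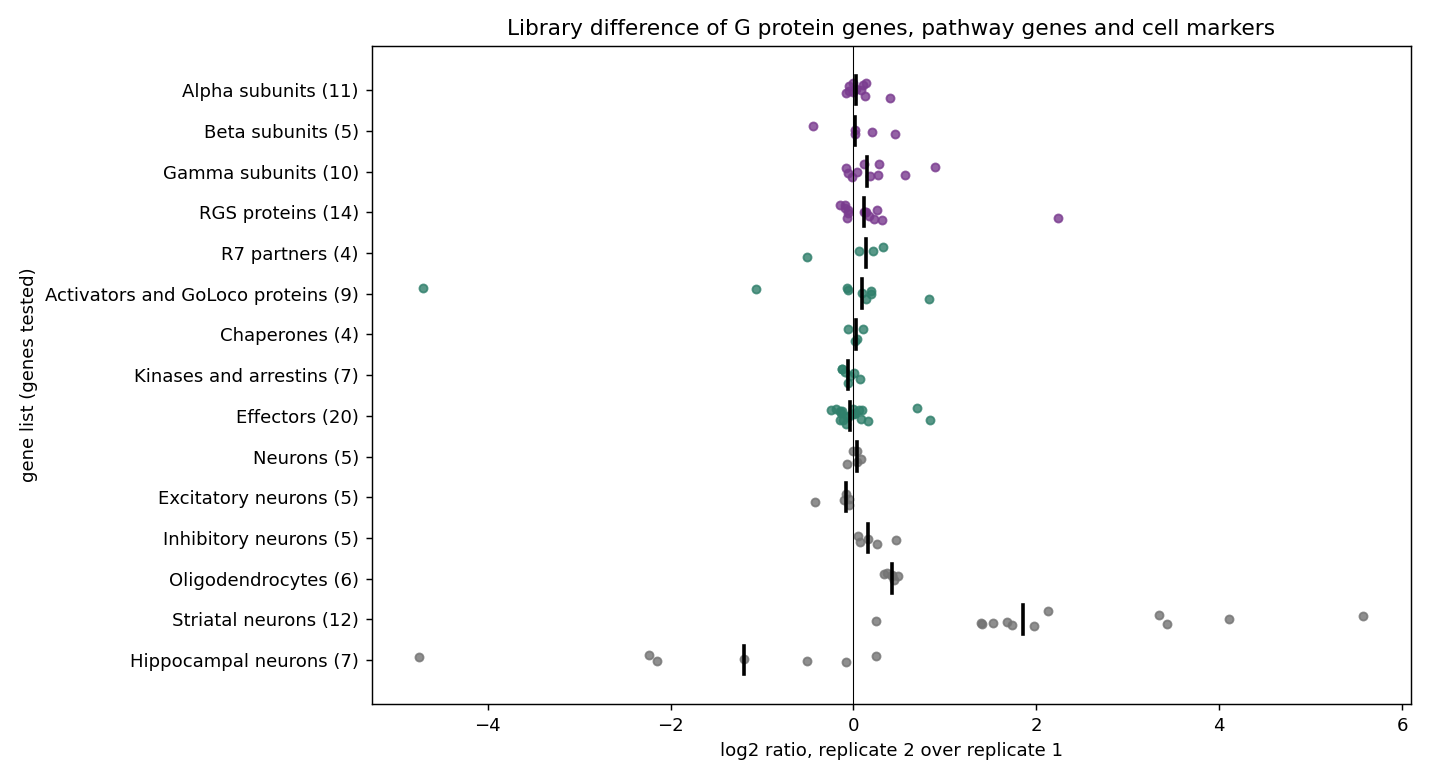
Log2 ratio of replicate 2 to replicate 1 for each gene tested (points, spread vertically for sight) with the median of each list (black bar), for the 4 families (purple), other pathway genes (green) and cell markers (grey). The medians of the 4 families lie between 0.02 and 0.15, those of striatal and hippocampal markers at 1.86 and −1.19.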

How the data were processed

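The members and gene lists were chosen with earlier results of these data known. Per the file headers, the authors deposited expected counts, TPM and FPKM per gene and transcript on mm10, with GENCODE annotation M4, and each transcript as a percent of its gene. The deposited mm9 tables hold RPKM on Ensembl 65 models and whole junction read counts in a pair of columns not assigned to replicates. The aligner and quantifier are not given in the sources used here.

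Symbols and positions came from GENCODE M21 by Ensembl identifier (98.0% of rows). Expected counts were rounded, which altered 2 of the 40 genes, and scaled by TMM (edgeR 4.0.16, R 4.3.3) over all 43346 genes. Each gene with at least 10 counts was compared by an exact two-sided binomial test with Benjamini-Hochberg adjustment. Log2 ratios add 0.5 counts. Intervals are 95% Clopper-Pearson and cover only the sampling of reads, which carry no molecular identifiers and so are not separate molecules. The binomial p-values likewise cover only the sampling of reads and measure no spread between biological replicates. The test was tried on simulated counts whose only noise was the sampling of reads, as the test assumes. That trial cannot show how calls hold where libraries also vary for other reasons. Python was 3.11.15.

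Exon inclusion is the mean of the annotated junction reads at both exon ends, divided by the sum of that mean and the skipping reads. Skipping reads are those that join the same outer junction ends that the exon uses. Genes were named by rule: the 3 most abundant of each family, those called with at least 1.2-fold, and for other lists the 2 most abundant and those called with at least 1.5-fold. Further genes were named after their values were seen. Alternatives were DESeq2 1.42.0 size factors, plain totals, other count minimums, fold limits, posterior mean values, FPKM, mm9 RPKM and leaving out a library. Protein sequences were planned and were not used here.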

Additional observations from a re-analysis of the deposited data

How the results depend on the processing

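With only 1 group, no paired analysis was possible because there are no groups to pair. The 27 calls (21 higher, 6 lower) rest on reads sampled at great depth. With at least 1.2-fold 7 genes were called, 7 higher and 0 lower, and with at least 1.5-fold 2, 2 and 0. By edgeR's exact test at the common coefficient of variation they were 2, 2 and 0, which also leaves 2 genes with at least 1.2-fold. Over all 19829 genes tested these settings called 1848, 867 and 260, of which 59.0%, 64.0% and 69.2% were higher. At an unadjusted p under 0.05 edgeR's test gave 4 of the 40, a limit not counted over all genes. Plain totals gave 10 lower, and the share of all calls that were higher went from 51.5% to 33.2%. DESeq2 size factors and count minimums of 1 or 100 kept each count within 1.5 times. Under DESeq2 size factors Gng5 was no longer called with at least 1.2-fold. Plain totals lost Gng5 and Gng11, and a minimum of 100 counts added Gng8.

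On the TPM scale, where the median log2 ratio of all genes was −0.156, the direction turned for Gnai1 (−0.0798), Gnai3 (−0.0289), Gnao1 (−0.0185), Gna12 (−0.0503), Gnb1 (−0.133), Gng12 (−0.067), Rgs8 (−0.0184) and Rgs17 (−0.029). Gnb1 also turned under plain totals (−0.0109). The level ratio turned for Gng13 over Gng3 by counts (−2.84) and by mm9 RPKM (−0.43), for Gnb1 over Gnb2 by mm9 RPKM (−0.61) and for Gnb5 over Rgs7bp by counts (−1.73). Rgs14 over Rgs12, within its spread of 0 by TPM (0.18 ± 0.23), was −0.34 by counts. The division by length makes the count-based turns by construction, and the cause of the others was not tested. Leaving out either library gave 12 to 13 genes with a leading transcript under 60%. In mm9 RPKM, rescaled to the same sum, 30 of the 40 levels moved by more than 1 SD.

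Alternatives on start sites, retained introns and the cysteine share were added after seeing the data. By counts the upstream Gng7 start held 69.3% and 83.6%. The cysteine genes held 57.4% of the counts and 63.5% of the mm9 RPKM of the 10 alpha genes read, without Gnal and Gnas. With 2 libraries of 1 group no difference can be ascribed to a condition.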
